A study of Arabidopsis thaliana with 36 samples.

Results

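The response of Arabidopsis thaliana rosettes to a second cold treatment was compared between the accessions Col-0 and N14. For each gene, the change of N14 from before to after the second cold was taken, and the change of Col-0 over the same step was subtracted. The 12 libraries of this comparison, of 36 in the series, were chosen by their labels: the 4 groups that had been sampled before and after the second cold, each with 3 libraries from 3 independent experiments. Col-0, the reference accession, is of intermediate freezing tolerance per the labels, and N14 is a cold-tolerant accession. Neither carries a transgene or a mutation that the labels name. Before the second cold (here called the lag groups), plants had grown for 28 days, spent 3 days at 4 °C and returned to 20 °C for 7 days. After the second cold, plants of the same history had spent another 3 days at 4 °C, under 90 µE of light in place of 200 µE. Temperature, light and 3 days of age therefore changed together in both accessions. Each library was made from 1 pool of RNA from 5 replicate samples of rosettes, and the labels give 4 rosettes for these groups. Other groups of the series gave the response to a first cold of the same length, at 28 and at 35 days. For these the labels give 15 rosettes at 28 days and 4 at 35 days, so the 28-day pools also differed in that number.

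Plants that meet low but non-freezing temperatures acclimate: CBF transcription factors, induced by cold, switch on cold-regulated (COR) genes, many of which encode proteins that protect membranes and enzymes during freezing, while starch breakdown, sugar and membrane lipid metabolism are adjusted. The circadian clock gates this response by time of day. Salicylate, a defence hormone made through isochorismate, accumulates in Arabidopsis leaves during longer cold, and accessions of the species differ in the defence genes that it controls.

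Counts are those of the STAR table. A difference in response is a log2 value ± SE, positive where the change was higher in N14, from edgeR's quasi-likelihood test with 1 block for each pair of N14 and Col-0 pools of the same condition and experiment. A gene was called at a Benjamini-Hochberg adjusted p under 0.05 over all 20263 genes tested. Counts are those the authors made with STAR; the same reads were also counted or estimated by 6 other tools, whose tables served as alternatives. Levels are CPM, library-size normalised counts after TMM scaling, given for experiments 1, 2 and 3 in that order. Total counts of the 12 libraries ran from 17861514 to 30216741. On the first 2 principal components of log2 CPM, with 42.0% and 34.4% of the variance, the 4 groups formed separate clusters. In these bulk samples fewer cells of a type and less RNA per cell cannot be told apart. N14 reads were counted on gene models of the Col-0 reference, and the part of sequence differences between the accessions in the levels was not tested.

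Of the 20263 genes, 547 were called (2.7%). The response of N14 was higher than that of Col-0 in 131 genes (0.646%) and lower in 416 (2.05%). At least 2-fold differences were found in 292 of them (1.44%). The median difference over all genes tested was -0.08. The count depended on the pairing of pools. A fit with group means and no block for pairs called 53 genes, 9 higher and 44 lower, with all of the 547 estimates keeping their sign. It also depended on single pairs, with between 157 genes called (without the second cold pair of experiment 2) and 325 (without the lag pair of experiment 3) when 1 of the 6 pairs was left out, again with no change of sign among the 547. Every one of the 547 had the same sign in all 3 experiments, so the kept signs say little about the calls. The split by direction also moved with the scaling: 23.9% of the called genes were higher in N14 with TMM, 35.0% with RLE size factors and 35.4% with DESeq2. Within each accession, a larger number of genes changed. The second cold changed 8149 genes in Col-0 (40.2%; 21.6% up and 18.7% down) and 9450 in N14 (46.6%; 22.4% up and 24.2% down).

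**Figure D1:**
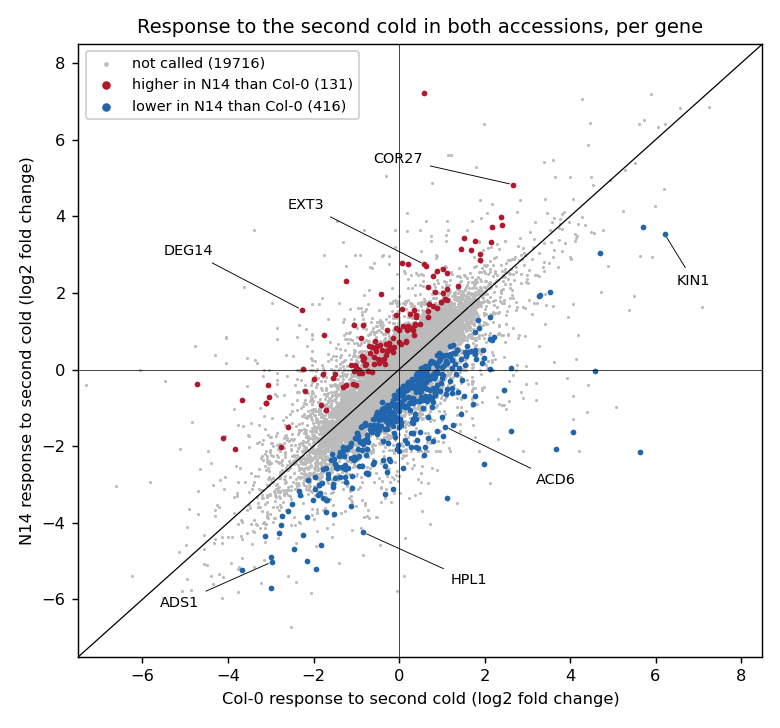
Log2 fold change from before to after the second cold in Col-0 (x axis) and N14 (y axis) for each of the 20263 genes tested, where the diagonal marks equal responses. Red points, above the diagonal, are the 131 genes with a higher response in N14, and blue points, below it, are the 416 with a lower one.

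The called genes differed in how the 2 accessions had moved. Of the 131 genes with a higher response in N14, 42 rose in N14 and were not called in Col-0 (32.1%, beside 5.95% of all genes tested). Another 33 fell in Col-0 and were not called in N14 (25.2%, beside 3.59%). In both accessions 24 rose (18.3%, beside 16.4%) and 9 fell (6.87%, beside 15%). Of the 416 with a lower response, 148 fell in N14 and were not called in Col-0 (35.6%, beside 9.1%). Another 85 rose in Col-0 and were not called in N14 (20.4%, beside 5.04%). In both accessions 99 of the 416 fell (23.8%, beside 15%) and 20 rose (4.81%, beside 16.4%). Col-0 fell while N14 rose in 6 genes (4.58% of the 131, beside 0.0296% of all genes tested), and Col-0 rose while N14 fell in 18 (4.33% of the 416, beside 0.0888%). The selection favours such genes, since both responses enter the difference. In the group of 131 the median response was -0.27 in Col-0 and 0.72 in N14, and in the group of 416 it was 0.11 in Col-0 and -1.0 in N14.

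Salicylate-dependent defence genes made up the largest number of called members among the 20 gene lists examined. Of 25 genes tested, 10 had a lower response in N14 (2.05% of all genes were called lower) and none a higher one, and all 25 estimates were negative (58.1% over all genes), with a median of -1.41 beside -0.08 over all genes. In Col-0 the second cold raised 11 of the 25 and lowered none, beside 21.6% of all genes raised and 18.7% lowered. In N14 it raised 1 and lowered 6, beside 22.4% and 24.2%. The list was chosen with earlier results of these data known, so its direction is not independent evidence. Without 1 of the 6 pairs of pools, between 5 and 8 members were called and between 22 and 25 estimates were negative, and with no block for pairs 2 were called. The count also varied with the table: 10 were called lower with TopHat, 8 with BWA, CLC and Salmon, and 7 with kallisto and RSEM.

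ACD6 [AT4G14400], an ankyrin-repeat membrane protein that promotes salicylate signalling and cell death, stood at 135, 90.9 and 91.6 CPM in Col-0 before the second cold and at 234, 266 and 174 CPM after it. In N14 it went from 46.7, 26.5 and 25.4 to 11, 12.3 and 11.6 CPM. All Col-0 libraries were thus higher after the cold and all N14 libraries lower, and N14 lay below Col-0 at both times. The difference in response was -2.54 ± 0.29 (adjusted p = 9.32e-05), and it stayed called with no block for pairs (adjusted p = 0.00623).

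LURP1 [AT2G14560], a gene induced late in the defence against a downy mildew pathogen, rose in Col-0 from 93.6, 171 and 112 to 463, 510.3 and 283 CPM. In N14 its level was 579, 373 and 288 CPM before and 199.6, 278 and 182 CPM after the second cold, a change of -0.91 ± 0.44 that was not called (adjusted p = 0.0895). The order of the accessions turned over: every N14 library was above every Col-0 library before the cold and below every one after it. The difference in response was -2.61 ± 0.46 (adjusted p = 0.0042).

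PCC1 [AT3G22231], a small defence gene under control of pathogens and the clock, was abundant in Col-0 only. It went from 186, 235 and 108 to 645, 852 and 332 CPM in Col-0, and from 1.35, 2.08 and 1.57 to 0.914, 0.855 and 1.34 CPM in N14. Its difference in response was -2.41 ± 0.55 (adjusted p = 0.0219). This call ended without the lag pair of experiment 2 or 3, or without the second cold pair of experiment 1 or 2, the highest adjusted p being 0.138 (difference -2.0). It also ended in the TopHat, kallisto, RSEM and Salmon tables (-2.06 and an adjusted p of 0.0718 with kallisto). AIG1 [AT1G33960], a gene induced by bacterial avirulence, was low throughout, at 1.60, 1.25 and 2.07 CPM before and 5.01, 6.82 and 2.31 CPM after the cold in Col-0. In N14 it went from 2.17, 2.04 and 2.44 to 1.5, 1.33 and 1.26 CPM, all lower after the cold. Its difference of -2.15 ± 0.54 (adjusted p = 0.0369) lost its call without any of 5 of the 6 pairs, all but the second cold pair of experiment 3, and stood at -1.79 with an adjusted p of 0.207 without the second cold pair of experiment 2.

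The other 6 called members act along the salicylate pathway from synthesis to response. ICS1 [AT1G74710], the isochorismate synthase, had a difference of -0.99 ± 0.22, and EDS5 [AT4G39030], which exports the precursor from the chloroplast, one of -1.41 ± 0.30. PAD4 [AT3G52430], a lipase-like regulator that works with EDS1, was at 7.98, 12.1 and 12.1 and then 12, 17.1 and 10.4 CPM in Col-0, which overlapped. In N14 it fell from 24.0, 22.5 and 19.4 to 8.13, 9.50 and 7.75 CPM with no overlap, and its difference was -1.67 ± 0.28 (adjusted p = 0.0024). WRKY70 [AT3G56400], a transcription factor downstream of salicylate, rose in Col-0 from 22.2, 20.2 and 18 to 40.1, 92.8 and 33.9 CPM. It went from 61.7, 31.4 and 23.4 to 16.4, 60.6 and 18.9 CPM in N14, where the library of experiment 2 moved up while the other 2 moved down, and its difference was -1.75 ± 0.29 (adjusted p = 0.00223). WAK1 [AT1G21250], a wall-associated receptor kinase, differed by -1.52 ± 0.30, and EDS1 [AT3G48090], the partner of PAD4, by -0.74 ± 0.20 (adjusted p = 0.04999). PAD4 was called in all 6 fits without 1 pair and with no block for pairs, but only in the TopHat table among the other 6 tables. In the remaining 5 its difference lay between -0.63 and -0.74, with adjusted p-values of up to 0.255. There its level in Col-0 fell in every experiment, from 43.5, 65.5 and 71.5 to 32.2, 34.6 and 40.5 CPM with kallisto. WRKY70 was called in all 6 fits without 1 pair and in all 6 other tables, but not with no block for pairs (adjusted p = 0.522). The calls of the other 4 ended without the lag pair of experiment 1 and others: WAK1 also without the second cold pair of experiment 3 (-1.38, adjusted p = 0.0634), EDS5 also without the lag pair of experiment 2 or the second cold pair of experiment 2 or 3, and ICS1 and EDS1 also without the lag pair of experiment 2 or the second cold pair of experiment 1 or 2 (EDS1 also of 3). Without the second cold pair of experiment 2, EDS5 was at -1.14 (adjusted p = 0.130), ICS1 at -0.74 (adjusted p = 0.149) and EDS1 at -0.67 (adjusted p = 0.228). PR1 [AT2G14610], the classical salicylate marker, went from 5.79, 29.1 and 1.55 to 74.4, 105 and 17.61 CPM in Col-0 and from 43.2, 27.0 and 14.5 to 64.4, 40.4 and 53.0 CPM in N14, with overlapping groups after the cold and a difference of -1.81 ± 0.96 (adjusted p = 0.342).

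**Figure D2:**
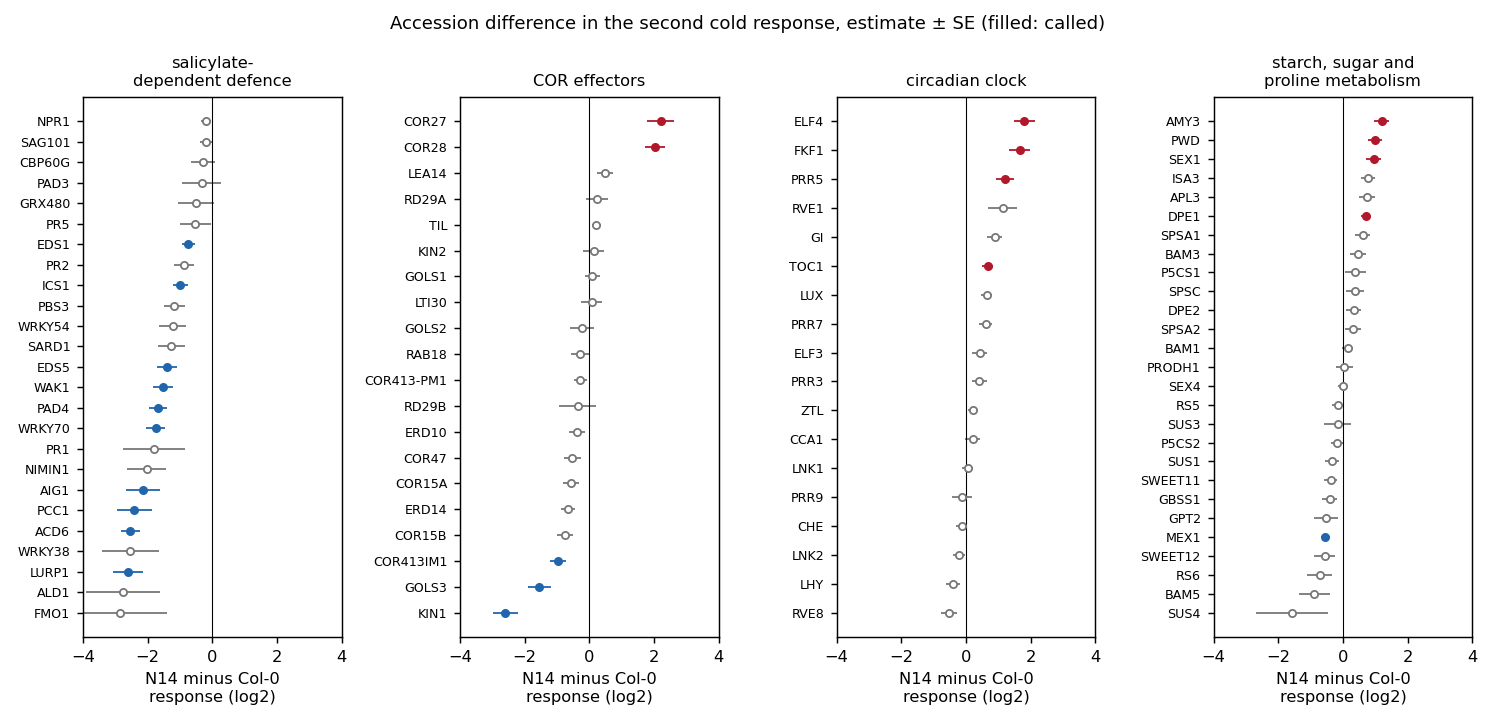
Difference in response (N14 minus Col-0, log2, point ± SE) for every tested member of 4 gene lists; filled coloured points are called and open grey points are not. All 25 salicylate defence genes lie left of 0, while the 5 called COR effectors lie on both sides and the 4 called clock genes lie right of 0.

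Of the 20 COR effectors, the second cold raised 13 and lowered none in Col-0, beside 21.6% of all genes raised and 18.7% lowered. In N14 it raised 13 and lowered 1, beside 22.4% and 24.2%. The size of the response differed in 5 of the 20, 2 higher and 3 lower in N14 (0.646% and 2.05% of all genes). KIN1 [AT5G15960], a small hydrophilic protein induced by cold, went from 9.18, 22.5 and 13.6 to 1004, 936 and 1426 CPM in Col-0. In N14 it went from 81.5, 54.8 and 26.4 to 581, 606 and 693 CPM. In these STAR counts N14 started above Col-0 and ended below it in every experiment, and the difference in response was -2.6 ± 0.39 (adjusted p = 0.00113; 0.0264 with no block for pairs). Its neighbour and near copy KIN2 [AT5G15970] differed by 0.14 ± 0.32 (adjusted p = 0.86), and the split of reads between the 2 genes is uncertain. The call of KIN1 did not hold in the CLC, kallisto and Salmon tables, where its difference was -0.16, -0.31 and -0.49 (adjusted p = 0.896, 0.709 and 0.428). With kallisto KIN1 stood in N14 at 10.3, 8.13 and 5.05 CPM before and at 439, 466 and 499 CPM after the cold, and in Col-0 at 9.40, 22.9 and 13.4 and then at 1000, 931 and 1419 CPM. The order of the accessions before the cold thus depended on the table. With RSEM it was the order after the cold that changed, N14 standing at 1231, 1209 and 1520 CPM and Col-0 at 1015, 949 and 1432 CPM. GOLS3 [AT1G09350], a galactinol synthase of the raffinose pathway, rose from 11.9, 15.8 and 11.1 to 228, 166 and 619.7 CPM in Col-0 and from 35.2, 30.7 and 17.1 to 172, 127 and 392 CPM in N14. Its difference was -1.55 ± 0.36 (adjusted p = 0.0248). Of the 6 fits without 1 pair, only that without the lag pair of experiment 3 called it, and the highest adjusted p was 0.122 (difference -1.40, without the second cold pair of experiment 3). COR413IM1 [AT1G29395], a protein of the inner chloroplast envelope, differed by -0.95 ± 0.25 (adjusted p = 0.0427), and of the 6 fits without 1 pair only that without the lag pair of experiment 3 called it (-0.92, adjusted p = 0.161, without the second cold pair of experiment 2).

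The 2 COR genes with a higher response in N14, COR27 [AT5G42900] and COR28 [AT4G33980], encode related regulators that link cold with the clock and flowering. COR27 went from 4.23, 16.1 and 4.92 to 40.2, 29.5 and 91.2 CPM in Col-0 and from 1.78, 2.26 and 0.751 to 40.4, 37.1 and 62.5 CPM in N14. The N14 libraries were below all Col-0 libraries before the cold and overlapped with them after it. The difference was 2.21 ± 0.40 (adjusted p = 0.00552), and without the lag pair of experiment 2, where Col-0 was highest, it was 1.74 with an adjusted p of 0.0730. COR28 went from 2.23, 14 and 3.68 to 16.5, 8.86 and 31.5 CPM in Col-0, which overlapped, and from 1.11, 4.35 and 0.877 to 24.8, 17 and 28.1 CPM in N14, which did not, with a difference of 2.04 ± 0.31 (adjusted p = 0.00129). Neither was called with no block for pairs (adjusted p = 0.551 for COR27 and 0.741 for COR28).

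The best-known cold markers did not pass the test. COR15A [AT2G42540], a chloroplast protein that stabilizes membranes, differed by -0.56 ± 0.25 (adjusted p = 0.271). Its levels after the second cold were 7121, 6826 and 10740.3 CPM in Col-0 and 8078, 8465 and 11220.5 CPM in N14, higher in N14 in every experiment, and before it they were 476, 529 and 402 CPM in Col-0 and 1396, 705 and 486 CPM in N14. The CBF genes themselves differed by -1.18 ± 0.39 for CBF1 [AT4G25490], -0.60 ± 0.38 for CBF2 [AT4G25470] and 0.34 ± 0.31 for CBF3 [AT4G25480], with adjusted p-values of 0.121, 0.446 and 0.62. In the 6 fits without 1 pair, the adjusted p of CBF1 lay between 0.0431 and 0.364. Among 16 CBF factors and cold regulators tested, 1 was called, with a lower response in N14 (6.25%, beside 2.05% of all genes). HSFC1 [AT3G24520], a heat shock factor induced early in cold, differed by -1.17 ± 0.30 (adjusted p = 0.0458), and of the 6 fits without 1 pair only that without the lag pair of experiment 2 called it (adjusted p = 0.202 and a difference of -1.0 without the second cold pair of experiment 3). HSFC1 overlaps another annotated gene, and the sources used here do not say whether counting used strand.

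In the circadian clock list every called gene had a higher response in N14. Of 18 clock genes tested, 4 were called (0.646% of all genes were called higher). Of the 18 estimates 13 were positive (41.9% over all genes), with a median of 0.42 beside -0.08 over all genes. ELF4 [AT2G40080], a member of the evening complex that represses morning genes, was at 17.7, 23.6 and 9.68 and then 33.8, 18.3 and 42.8 CPM in Col-0, which overlapped. In N14 it rose from 12.9, 5.75 and 4.13 to 47.4, 38.2 and 49.98 CPM with no overlap, and the difference was 1.80 ± 0.32 (adjusted p = 0.00436). FKF1 [AT1G68050], a blue light receptor that targets repressors of flowering for breakdown, rose from 9.71, 20.9 and 15.1 to 64.8, 31.4 and 111 CPM in Col-0 and from 6.85, 8.74 and 4.57 to 84.6, 65.9 and 119 CPM in N14. Its difference was 1.66 ± 0.33 (adjusted p = 0.00952), and 1.39 with an adjusted p of 0.0636 without the second cold pair of experiment 2. FKF1 overlaps another annotated gene.

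The other 2 called clock genes are pseudo-response regulators. PRR5 [AT5G24470] differed by 1.2 ± 0.27 (adjusted p = 0.0224) and TOC1 [AT5G61380] by 0.67 ± 0.18 (adjusted p = 0.0483). Each lost its call in 5 of the 6 fits without 1 pair, PRR5 in all but the second cold pair of experiment 3 and TOC1 in all but the lag pair of experiment 1. Without the second cold pair of experiment 2, PRR5 was at 0.96 (adjusted p = 0.148) and TOC1 at 0.60 (adjusted p = 0.217). The morning genes CCA1 [AT2G46830] and LHY [AT1G01060] differed by 0.20 ± 0.22 and -0.41 ± 0.21 (adjusted p = 0.69 and 0.322). Between 1 and 3 of the 18 clock genes were called without 1 pair (1 without the second cold pair of experiment 2), and none with no block for pairs. The clock genes varied between experiments. In Col-0 before the cold, experiment 2 had the highest of the 3 levels for COR27, COR28, ELF4, FKF1, PRR5 and TOC1, and in Col-0 after the cold it had the lowest. The time of day of each harvest was not tested as a part of these values.

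In starch, sugar and proline metabolism the called genes act in starch breakdown. Of 27 genes of starch, sugar and proline metabolism, 4 were higher and 1 lower (0.646% and 2.05% of all genes), and the median of the list was 0.04. AMY3 [AT1G69830], a chloroplast alpha-amylase, fell in Col-0 from 185, 134 and 175 to 106, 91.8 and 75.6 CPM. In N14 it was at 175, 185 and 163 and then at 219.8, 242 and 201 CPM, higher after the cold in every experiment though its change of 0.34 ± 0.20 was not called. The accessions overlapped before the cold and did not after it, and the difference was 1.2 ± 0.24 (adjusted p = 0.011; 0.0651 and a difference of 1.14 without the second cold pair of experiment 2). The glucan, water dikinases SEX1 [AT1G10760] and PWD [AT5G26570], which phosphorylate starch at the start of its breakdown, differed by 0.95 ± 0.24 (adjusted p = 0.04) and 1.0 ± 0.23 (adjusted p = 0.0229). DPE1 [AT5G64860], which handles the maltotriose left by amylases, differed by 0.70 ± 0.15 (adjusted p = 0.0176), and MEX1 [AT5G17520], the maltose exporter of the chloroplast, by -0.54 ± 0.13 (adjusted p = 0.0264). Of these, SEX1 lost its call without any pair but the lag pair of experiment 2 (down to 0.78, adjusted p = 0.224, without the second cold pair of experiment 2). PWD lost it without the lag pair of experiment 1 or 3 or the second cold pair of experiment 2 or 3 (0.90, adjusted p = 0.133, without the second cold pair of experiment 2), and DPE1 without the lag pair of experiment 1 or the second cold pair of experiment 2 or 3 (0.60, adjusted p = 0.0847, without the first of these). MEX1 kept its call without the lag pair of experiment 2 alone (-0.48, adjusted p = 0.145, without the second cold pair of experiment 3). The list as a whole had between 0 and 4 members called higher in the 6 fits without 1 pair, and none with no block for pairs.

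**Figure D3:**
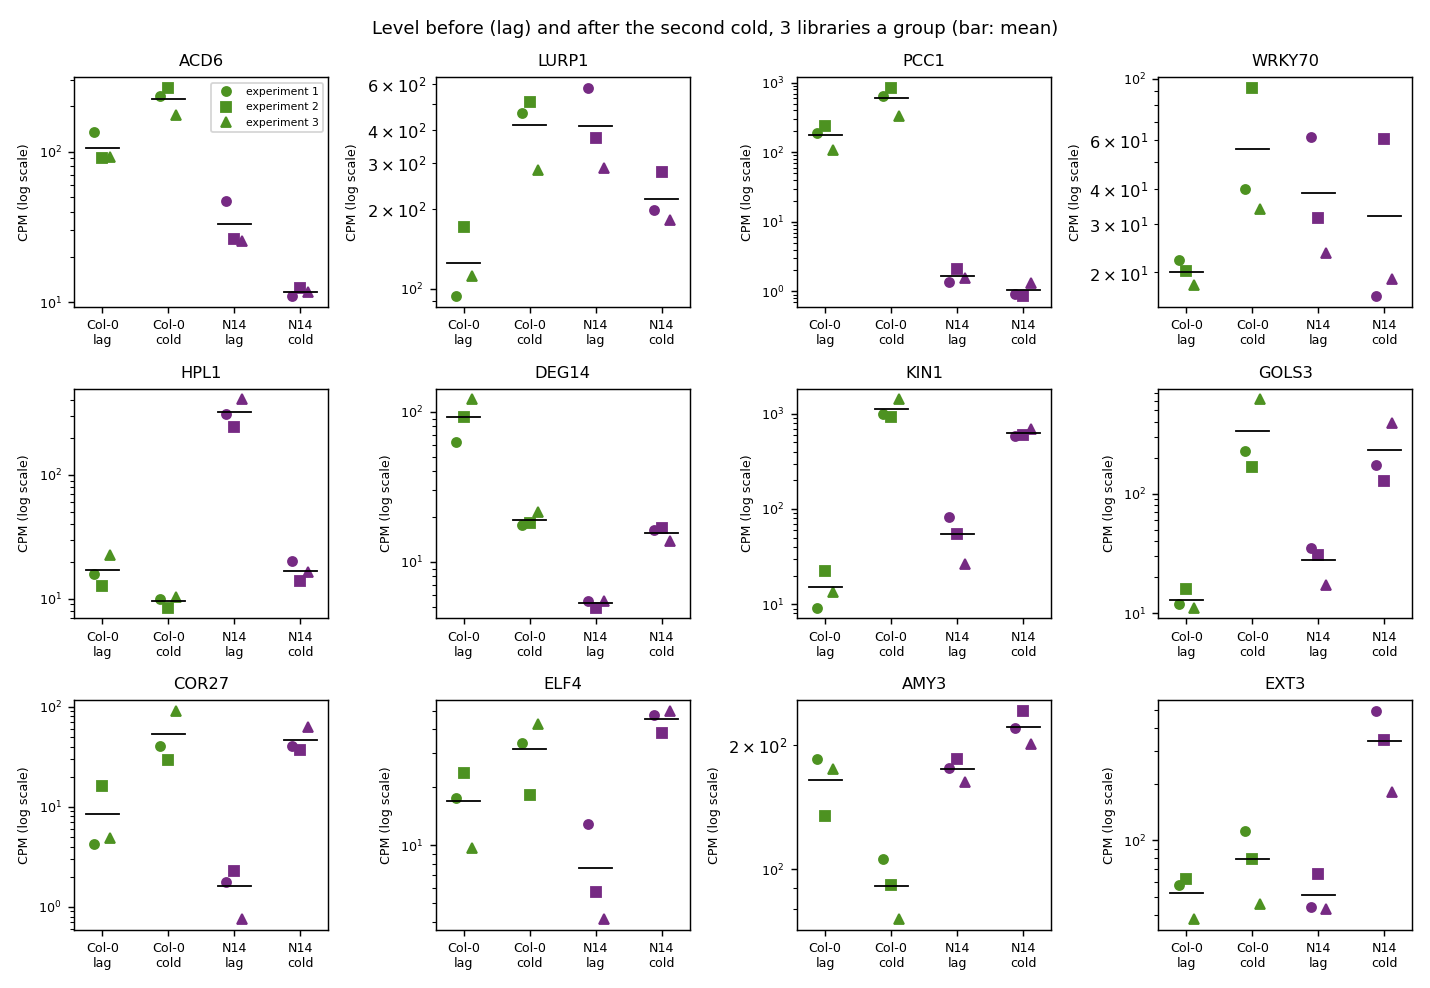
Level in CPM on a log axis for 12 genes, before (lag) and after (cold) the second cold in Col-0 (green) and N14 (purple); each point is 1 library, its shape gives the experiment and the bar is the mean of 3. ACD6 and WRKY70 rise in Col-0 but not in N14 as a group, KIN1 and GOLS3 start higher and end lower in N14 in these STAR counts (for KIN1 not in every table), and HPL1 and DEG14 differ between accessions mainly before the cold.

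The single genes with the largest differences lay mostly outside these lists. DEG14 [AT5G27660], a protease of the Deg family, fell in Col-0 from 62.8, 92.6 and 122 to 17.58, 18.22 and 21.3 CPM. It rose in N14 from 5.45, 4.93 and 5.51 to 16.4, 16.9 and 13.7 CPM. N14 lay far below Col-0 before the cold and just below it afterwards, by -4.07 ± 0.22 and -0.28 ± 0.19 on the log2 scale. The difference in response was 3.79 ± 0.28 (adjusted p = 3.17e-07), and 3.4, 4.1 and 3.8 in experiments 1, 2 and 3. The size depended on the table. In the CLC, kallisto and Salmon tables DEG14 was still called, but the difference was 1.70, 1.92 and 1.92 (adjusted p = 0.0184, 0.00284 and 0.00229). In these 3 tables N14 was lower after the cold in experiments 1 and 3: with kallisto it stood at 24.6, 17.38 and 21.0 CPM before and at 17.3, 17.5 and 15.2 CPM after the cold.

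HPL1 [AT4G15440], the hydroperoxide lyase that makes the short aldehydes of green leaf scent, was the mirror image. N14 went from 309, 245 and 410.0 to 20.2, 14 and 16.3 CPM. Col-0 was low throughout, at 16.0, 12.8 and 22.5 CPM before and 10.05, 8.47 and 10.3 CPM after the cold. The difference was -3.44 ± 0.26 (adjusted p = 3.17e-07). NUDT6 [AT2G04450], a nudix hydrolase that promotes salicylate signalling, likewise started high in N14, at 37.2, 38.0 and 35.3 CPM, and ended at 14, 13.5 and 12.8 CPM. In Col-0 it rose from 5.53, 5.01 and 3.83 to 11.8, 13.9 and 9.01 CPM, so that the accessions overlapped after the cold, and its difference was -2.72 ± 0.37 (adjusted p = 0.000554).

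The opposite start was seen for DI21 [AT4G15910], a drought-induced gene. It was at 2.46, 4.71 and 3.69 CPM in N14 before the cold and at 24.0, 31.8 and 18 CPM after it, while Col-0 stood at 25.4, 27.0 and 23.2 and then 28.4, 26.1 and 32.3 CPM. Only N14 was called as changed, and the difference in response was 2.56 ± 0.35 (adjusted p = 0.000554). EXT3 [AT1G21310], an extensin of the cell wall, overlapped between the accessions before the cold. Its levels were then 57.9, 61.8 and 37.7 CPM in Col-0 and 44.1, 65.7 and 42.6 CPM in N14. After the cold they were 112, 79.6 and 45.3 CPM in Col-0 and 496, 346 and 181 CPM in N14, with no overlap between the accessions. The difference was 2.13 ± 0.21 (adjusted p = 1.38e-05).

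DEG14, HPL1, NUDT6 and DI21 were called in every one of the 6 fits without 1 pair and also with no block for pairs (adjusted p = 5.14e-09, 0.000185, 0.0115 and 0.000156). EXT3 was called in the former but not in the latter (adjusted p = 0.0813). Of the 53 called genes followed through the alternatives, 10 stayed called with no block for pairs: these 4, ACD6, KIN1, PAD4, AT1G20030, AT2G41090 and AT5G03350. Of the 53, 42 were called in every one of the other 6 tables that tested them, and 11 lost their call in at least 1 table. Besides KIN1, PAD4 and PCC1 these were AIG1, EDS1, MEX1, TOC1, HSFC1, UGT78D2, SOC1 and XTH33, whose highest adjusted p lay between 0.0521 (XTH33) and 0.249 (HSFC1).

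The remaining genes among the 10 largest differences of each sign, at a mean log2 CPM of at least 3, are listed here with the same values. Those with a higher response in N14 were AT1G20030 (2.76 ± 0.41), AT2G29170 (2.24 ± 0.27), AT1G07050 (1.74 ± 0.24) and AT4G38932 (1.71 ± 0.36), the last annotated as a long non-coding RNA. AT1G20030 fell in Col-0, from 48.2, 43.7 and 47.1 to 4.39, 3.76 and 8.64 CPM. In N14 it went from 11.7, 6.61 and 13.8 to 6.96, 8.14 and 8.86 CPM, up in experiment 2 and down in the other 2, a change that was not called. Those with a lower response were PCR1 [AT1G14880], a plant cadmium resistance protein (-2.62 ± 0.57), AT2G41090 (-2.46 ± 0.26), AT5G03350 (-2.46 ± 0.39) and ANK [AT5G54610], an ankyrin-repeat protein (-2.26 ± 0.47). AT2G41090 was the most abundant of them. It rose in Col-0 from 482, 354 and 400.3 to 814, 832 and 655 CPM and fell in N14 from 1073, 652 and 679 to 272, 273 and 249 CPM, with no overlap in either accession. Its difference stayed called in all 6 fits without 1 pair, as did those of AT1G20030, AT2G29170, AT1G07050 and AT5G03350. With no block for pairs AT2G29170 and AT1G07050 lost their calls (adjusted p = 0.0693 and 0.565) and the other 3 kept theirs. AT4G38932 lost its call without the lag pair of experiment 2 or the second cold pair of experiment 1 or 2 (1.55, adjusted p = 0.0911, without the last). PCR1 and ANK lost theirs without the lag pair of experiment 1 or the second cold pair of experiment 1 or 2 (-2.47 and -2.14, adjusted p = 0.0921 and 0.0754, without the last). AT5G03350 and ANK overlap other annotated genes.

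Membrane lipid genes held calls in both directions. Of 12 genes of lipid desaturation and membrane lipids, 1 was called higher and 1 lower (0.646% and 2.05% of all genes). ADS1 [AT1G06080], an acyl-lipid desaturase, fell in Col-0 from 36.1, 74.6 and 40.7 to 5.17, 5.59 and 8.51 CPM and in N14 from 26.4, 44.5 and 21.8 to 0.555, 0.684 and 1.64 CPM. Both accessions fell without overlap, N14 further, with a difference of -2.1 ± 0.21 (adjusted p = 1.75e-05). Its relative ADS2 [AT2G31360], which is needed for chilling tolerance, rose in Col-0 from 309, 222 and 234 to 341, 373 and 365 CPM and in N14 from 241, 151 and 172 to 401, 442 and 451 CPM. N14 was the lower of the pair before the cold and the higher after it in every experiment, with a difference of 0.71 ± 0.14 (adjusted p = 0.0107). Among 10 lipid transfer proteins, 1 was called, with a lower response in N14 (2.05% of all genes were called lower). This was AZI1 [AT4G12470], which takes part in systemic immunity. It rose from 20.3, 22.0 and 8.90 to 798, 629 and 1271 CPM in Col-0 and from 125, 45.1 and 23.9 to 662, 684 and 1224 CPM in N14, so that the accessions differed before the cold and overlapped after it. Its difference was -1.78 ± 0.36 (adjusted p = 0.0107), and -1.28 with an adjusted p of 0.0575 without the lag pair of experiment 1; without the second cold pair of experiment 1 it also lost its call.

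Flavonoid genes rose alike in number in both accessions, 25 of 33 in Col-0 and 27 of 33 in N14, beside 21.6% and 22.4% of all genes. In the size of the response 2 differed, 1 higher and 1 lower in N14 (3.03% each, beside 0.646% and 2.05% of all genes). MYB111 [AT5G49330], a transcription factor of flavonol synthesis, rose from 4.01, 1.62 and 3.42 to 19.6, 18.5 and 10.3 CPM in Col-0 and from 3.96, 1.63 and 2.63 to 39.3, 42.2 and 30.7 CPM in N14. All N14 libraries were above all Col-0 libraries after the cold, and the difference was 1.38 ± 0.29 (adjusted p = 0.013; 0.0667 and a difference of 1.26 without the lag pair of experiment 3). UGT78D2 [AT5G17050], which adds glucose to anthocyanins and flavonols, differed by -0.73 ± 0.19 (adjusted p = 0.041), and leaving out any 1 of the 6 pairs ended the call (-0.59, adjusted p = 0.178, without the second cold pair of experiment 1). CHS [AT5G13930], the entry enzyme of the pathway, differed by 0.29 ± 0.22 (adjusted p = 0.522).

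Of 27 glucosinolate genes tested, 1 had a higher and 2 a lower response in N14 (0.646% and 2.05% of all genes). N14 differed from Col-0 in 19 of the 27 before the second cold (27.3% of all genes) and in 18 after it (24.1%). ESM1 [AT3G14210], which favours isothiocyanates over nitriles when glucosinolates break down, was at 1599, 849 and 850.3 CPM in Col-0 before the cold and at 61.8, 37.2 and 46.6 CPM in N14. It was at 1437, 1396 and 1533 and 134, 106 and 139.6 CPM after the cold, with a difference in response of 0.93 ± 0.18 (adjusted p = 0.0096; 0.0526 and a difference of 0.87 without the second cold pair of experiment 1). MAM3 [AT5G23020], which lengthens the side chains of aliphatic glucosinolates, differed by -1.19 ± 0.22 (adjusted p = 0.00555), and CYP83B1 [AT4G31500], of indole glucosinolate synthesis, by -0.84 ± 0.18 (adjusted p = 0.0156). CYP83B1 lost its call without the lag pair of experiment 2 or the second cold pair of experiment 2 or 3 (-0.60, adjusted p = 0.147, without the last).

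In 6 further lists 1 or 2 members were called (0.646% of all genes were called higher and 2.05% lower). Called higher were 1 of 23 flowering regulators and 1 of 10 photoprotection genes. Called lower were 1 of 16 genes of reactive oxygen detoxification, 1 of 12 dark and senescence genes, 1 of 7 heat shock proteins and 2 of 20 cell wall expansion genes. Counts this small are given as single genes, not as a result about the lists. SOC1 [AT2G45660], a promoter of flowering, was at 91.3, 121 and 106 CPM in Col-0 and 7.91, 9.10 and 8.20 CPM in N14 before the cold, and at 62.0, 59.0 and 83 and 9.14, 12.3 and 16.6 CPM after it. It was lower in Col-0 and higher in N14 after the cold in every experiment, neither change was called, and the difference was 1.2 ± 0.32 (adjusted p = 0.0483). FLC [AT5G10140], the repressor of flowering that keeps SOC1 low, was at 168, 179 and 168 CPM in N14 before the cold against 2.76, 4.82 and 2.48 CPM in Col-0, and its responses differed by -0.20 ± 0.35 (adjusted p = 0.812). The others were the peroxisomal catalase gene CAT2 [AT4G35090] (-0.72 ± 0.16), the violaxanthin de-epoxidase gene VDE [AT1G08550] (0.66 ± 0.15), the senescence regulator NAP [AT1G69490] (-1.44 ± 0.36), the heat tolerance gene HSA32 [AT4G21320] (-1.49 ± 0.34) and the xyloglucan-modifying enzymes XTH15 [AT4G14130] (-1.42 ± 0.37) and XTH33 [AT1G10550] (-1.45 ± 0.37). Each of these 7 genes lost its call in at least 4 of the 6 fits without 1 pair. SOC1 lost it in all 6 (1.11, adjusted p = 0.201, without the second cold pair of experiment 2), and the highest adjusted p of the other 6 lay between 0.102 and 0.288. CAT2, VDE, HSA32 and XTH15 overlap other annotated genes. The summed level of 9 heat shock proteins was highest in the lag pools of experiment 1, at 65.4 CPM in Col-0 and 85.9 CPM in N14, beside 16.8 and 20.2 CPM in experiment 2, and its part in the difference of HSA32 was not tested.

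No member was called in 5 lists, of which 2 hold markers of other tissues, described at the end. The 26 genes of jasmonate synthesis and response had a median of -0.13, and VSP2 [AT5G24770], which encodes a storage protein of leaves that jasmonate induces, had the largest estimate (1.17 ± 0.42, adjusted p = 0.158). VSP2 went from 181, 314 and 596 to 43.6, 44.4 and 29.7 CPM in Col-0 and from 94.7, 160.1 and 229 to 56.9, 39.1 and 29.7 CPM in N14. The 16 genes of ABA synthesis and response had a median of 0.10, led by ABI5 [AT2G36270] (0.77 ± 0.51, adjusted p = 0.459). Another list held 23 genes for light-harvesting proteins and the Rubisco small subunit. The second cold lowered 18 of them in Col-0 and 20 in N14, beside 18.7% and 24.2% of all genes. A negative difference was found in 20 of the 23 (58.1% over all genes), with a median of -0.34 beside -0.08 over all genes. The largest was LHCB2.3 [AT3G27690] (-0.90 ± 0.27, adjusted p = 0.0875). ELIP1 [AT3G22840], an early light-induced protein and the photoprotection gene with the largest rise in Col-0, differed by -0.30 ± 0.37 (adjusted p = 0.729).

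A difference in response equals the accession difference after the second cold minus that before it, so the levels of the same libraries show on which side it arose. Over all genes, N14 differed from Col-0 in 5535 genes before the second cold (27.3%) and in 4888 after it (24.1%). The second of these counts was 2988 without the second cold pair of experiment 2 and 3187 without that of experiment 3. Of the 131 genes with a higher response in N14, 82 were lower in N14 before the cold (11.7% of all genes were) and 68 were higher after it (10.4% of all genes were). Of the 416 with a lower response, 221 were higher in N14 before the cold (15.6% of all genes were) and 239 were lower after it (13.7% of all genes were). These shares follow in part from the selection, since both sides enter the difference. The medians were -0.58 before and 0.46 after the cold for the 131, and 0.47 before and -0.57 after it for the 416.

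**Figure D4:**
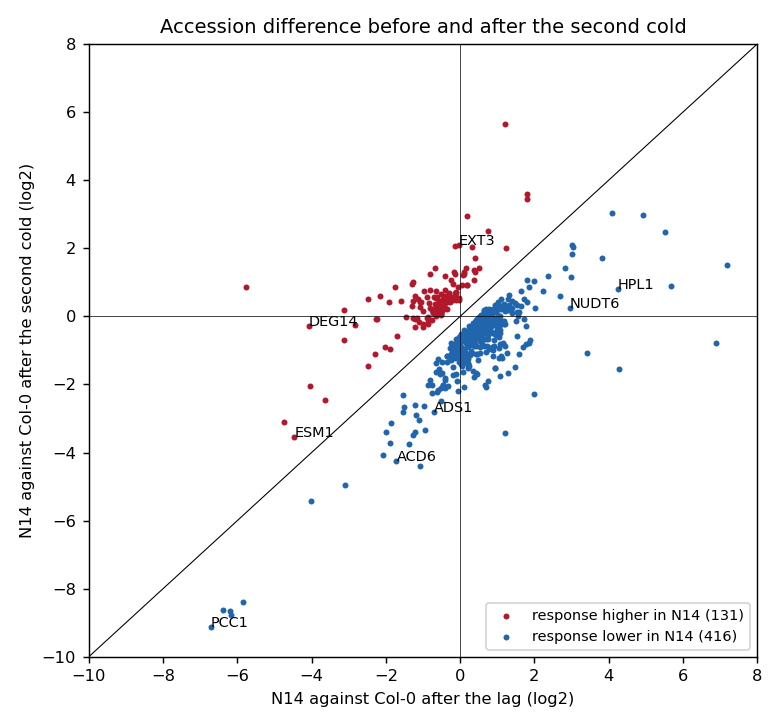
Accession difference (N14 minus Col-0, log2) before the second cold on the x axis and after it on the y axis for the 547 called genes, red for a higher and blue for a lower response in N14; the diagonal marks no difference in response. HPL1 and DEG14 lie far from 0 on the x axis and near 0 on the y axis, EXT3 near 0 on the x axis only, and ACD6 and PCC1 are low in N14 on both axes.

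Libraries of the first cold, none of which enter the estimate of the second cold difference, gave the same contrast at a first exposure. They did enter the filter, the scaling and the spread behind the second cold calls, which came from a fit over all 36 libraries. At 35 days 646 genes were called (3.19%; 1.1% higher and 2.09% lower in N14) and at 28 days 527 (2.6%; 1.04% higher and 1.56% lower). Of the 131 genes with a higher response of N14 in the second cold, 127 had a positive difference in the first cold at 35 days and 128 at 28 days, and of the 416 with a lower response 404 and 406 had a negative one. Over all 20263 genes the sign was shared in 69.6% and 69.9%. Called with the same sign in all 3 cold treatments were 57 of the 131 (43.5%) and 124 of the 416 (29.8%), or 181 genes in all (0.893% of all genes tested). Among all genes tested, 2.97% were called at 35 days and 2.57% at 28 days with the sign of their second cold difference. The medians were 0.78 at 35 days and 0.81 at 28 days for the 131 (1.01 in the second cold), and -0.77 and -0.78 for the 416 (-1.06 in the second cold).

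Of the genes described above, DEG14 differed by 4.28 ± 0.29 at 35 days and 4.33 ± 0.29 at 28 days, HPL1 by -3.62 ± 0.27 and -3.85 ± 0.29, KIN1 by -3.06 ± 0.39 and -2.86 ± 0.40, and ACD6 by -2.44 ± 0.30 and -3.13 ± 0.30. These values are from the STAR counts, and the first cold differences were not tested in the other 6 tables. In the second cold, the CLC, kallisto and Salmon tables gave KIN1 only -0.16, -0.31 and -0.49, none called. They gave DEG14 a smaller difference, of 1.70, 1.92 and 1.92. In salicylate-dependent defence 5 of 25 genes were called lower and 1 higher at 35 days, and 6 lower and none higher at 28 days, against 10 lower in the second cold. Glucosinolate genes ran the other way in number, with 12 of 27 called lower at 35 days and 10 at 28 days against 2 in the second cold. Neither count shows by itself that the treatments differed, and the test of that difference follows.

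The second cold difference was set against that of the first cold at 35 days in the same fit. No gene was called by edgeR (smallest adjusted p = 0.0616), while 842 had an unadjusted p under 0.05, and DESeq2 called 3. Those 3, chosen after their values were seen, were WRKY70, AT4G32480 and AT1G72430, all with a lower value in the second cold. WRKY70 had a difference in response of -1.75 in the second cold, 0.29 in the first cold at 35 days and -0.96 at 28 days, and second minus first at 35 days was -2.04 ± 0.40 (edgeR adjusted p = 0.367). EXT3, with 2.13 in the second cold, 0.82 at 35 days and -0.08 at 28 days, gave 1.31 ± 0.29 (edgeR adjusted p = 0.589). Between these harvests the plants also differed by 3 days in age, those of the second cold being the older.

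**Figure D5:**
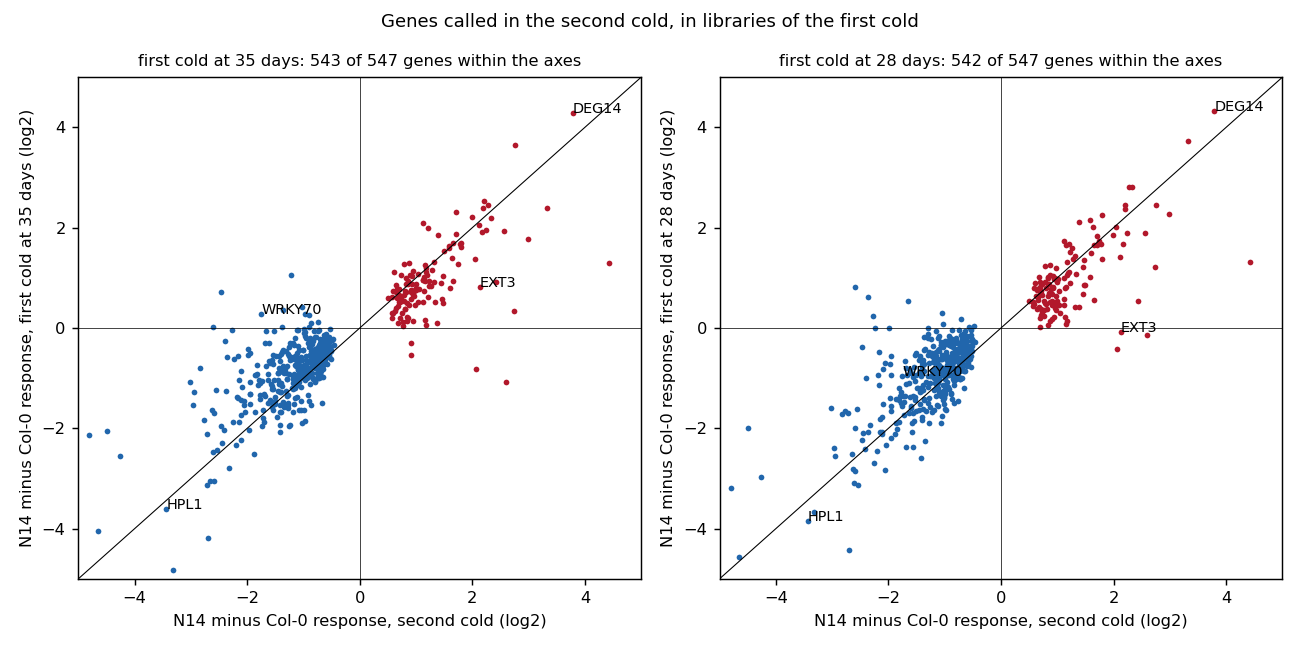
Difference in response (N14 minus Col-0, log2) in the second cold on the x axis against the first cold at 35 days (left) and at 28 days (right) on the y axis, for genes called in the second cold (red higher, blue lower). In both panels nearly all red points lie above 0 and nearly all blue points below it: 127 and 128 of 131, and 404 and 406 of 416.

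Markers of other tissue were checked in the rosette pools. The summed level of 8 floral organ genes was between 8.39 and 15.0 CPM in the 6 Col-0 libraries and between 0.501 and 1.3 CPM in the 6 N14 libraries, so the accessions differed at both times. None of the 7 floral genes tested was called in the difference in response. AP1 [AT1G69120], which specifies floral meristems, was at 2.81, 2.55 and 2.90 CPM in Col-0 before and 2.68, 2.32 and 2.77 CPM after the cold. In N14 it was at 0 in all 3 libraries before the cold and at 0.0980, 0.0684 and 0 CPM after it. The summed level of 3 root genes fell from between 21.9 and 39.0 to between 3.14 and 10.4 CPM in Col-0, and from between 10.5 and 28.0 to between 1.18 and 7.05 CPM in N14, and none was called in the difference. The part of either tissue in the differences in response was not tested.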

How the data were processed

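RNA was sequenced from rosette pools of Col-0 and N14 with a directional polyA kit, per the labels' protocols. The authors deposited 7 tables over the same 36 libraries: whole-number counts per gene (STAR, TopHat, BWA and CLC) and expected counts (kallisto, RSEM and Salmon), which were rounded here. Per the submitters' processing notes, reads were assigned to TAIR10, and the tools named include STAR 2.5.2a, TopHat2 2.1.1, BWA 0.7.13, RSEM 1.2.30, kallisto 0.42.5, Salmon 0.6.0 and HTSeq 0.7.2. The sources used here do not say whether strand was used. The deposited BWA table held its block of counts in 2 identical copies, and the first was read.

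The STAR counts were filtered with filterByExpr by group, scaled with TMM and tested with edgeR 4.0.16 (R 4.3.3) over all 36 libraries. Differences between accessions and between responses came from a quasi-likelihood fit with 18 pair blocks (12 residual degrees of freedom), and changes within an accession from a fit with 12 group means. The SE is the estimate divided by the square root of F. A replicate number marks 1 of 3 independent experiments in the series' design, which is where the pairing comes from. Deviations of same-numbered N14 and Col-0 pools from their group means correlated at 0.0704 to 0.649 (median 0.373, 17 of 18 pairs over 0.1). Those of different numbers had a median of -0.220 and a highest value of 0.323, with 4 of 36 over 0.1. Deviations from a mean of 3 libraries cancel out within a group. Negative values for different numbers therefore follow in part from positive ones for same numbers and are not separate support for the pairing. No pair of libraries of a group agreed within sampling noise (chi-square per gene of 8.20 to 102). Whether pools of different experiments came from separate cultures is stated only as independent experiments.

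The members and the 20 gene lists were chosen with earlier results of these data known. Named were the 10 largest called differences of each sign with a mean log2 CPM of 3 or more and the same sign in 3 experiments, up to 4 called members of each list (the largest where none was called) and 9 cold, flowering and defence genes. Beyond this rule, 8 more called list members were named after their values were seen. Symbols came from the TAIR10.1 annotation, which held 32835 of 33602 identifiers; no sequences or coordinates are given, since the tables use another build. Alternatives were the other 6 tables, DESeq2 1.42.0, limma voom 3.58.1, other blocks, the 12 libraries alone, RLE scaling, no filter, and each pair or experiment left out. The script was tested on simulated counts.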

Additional observations from a re-analysis of the deposited data

Results flagged for a closer look

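The results listed here were picked out because the response to the second cold differed between the accessions by a test of the difference itself, edgeR's interaction contrast at an adjusted p under 0.05. Values are differences in response on the log2 scale, N14 minus Col-0, and are given without explanation.

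Among salicylate defence genes and their like, the values were -2.54 for ACD6, -2.61 for LURP1, -2.41 for PCC1, -2.15 for AIG1, -2.72 for NUDT6 and -2.26 for ANK. In the COR and CBF lists they were 2.21 for COR27, 2.04 for COR28, -2.6 for KIN1, -1.55 for GOLS3 and -1.17 for HSFC1. Clock genes had 1.80 for ELF4, 1.66 for FKF1, 1.2 for PRR5 and 0.67 for TOC1. Starch genes had 1.2 for AMY3, 1.0 for PWD, 0.95 for SEX1 and 0.70 for DPE1, and MEX1, named after its values were seen, had -0.54.

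For lipid genes the differences were -2.1 for ADS1, 0.71 for ADS2 and -1.78 for AZI1. For flavonoid and glucosinolate genes they were 1.38 for MYB111, -0.73 for UGT78D2, 0.93 for ESM1, -1.19 for MAM3 and -0.84 for CYP83B1. In other lists were SOC1 at 1.2, VDE at 0.66, CAT2 at -0.72, NAP at -1.44, HSA32 at -1.49, XTH15 at -1.42 and XTH33 at -1.45. Outside the lists were DEG14 at 3.79, AT1G20030 at 2.76, DI21 at 2.56, AT2G29170 at 2.24, EXT3 at 2.13, AT1G07050 at 1.74, AT4G38932 at 1.71, HPL1 at -3.44, PCR1 at -2.62, AT2G41090 at -2.46 and AT5G03350 at -2.46.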

How the results depend on the processing

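All 547 called differences kept their sign in every fit that tested them, with 1 exception in the CLC table (534 of 535). In the STAR counts all 547 had the same sign in all 3 experiments, so kept signs in refits of those counts say little about the calls. The other 6 tables called 495 to 616 genes and kept 452 to 518 of the 547. DESeq2 called 710, voom 555, RLE scaling 469 and no low count filter 502. The choice of block mattered most: with no replicate block 53 genes were called (9 higher, 44 lower), and with a replicate block for experiment and accession 64 (13 higher, 51 lower). The 12 libraries alone, with the pair block, called 839 (242 of them higher), and DESeq2 called 251 higher. Without the block the first cold differences fell to 54 genes at 35 days and 61 at 28 days, the accession differences to 3178 after the lag and 2827 after the second cold. Second minus first at 35 days gave 3 genes with DESeq2 and 2 with no low count filter. Leaving out 1 pair, or (chosen after seeing the data) 1 experiment, gave 61 to 325 called genes, 13 to 98 higher and 48 to 252 lower. It gave 0 to 2 genes for second minus first, 2988 to 5021 after the second cold, and 5414 to 7980 for the response in Col-0. Fits without a pair or experiment hold fewer samples; the cause of the other shifts was not tested. Of 1443 values for the genes followed, 1087 stayed on their side of the threshold, 352 lost their call, 4 gained one and none reversed. Of 53 genes called and followed, 20 were called in all 6 fits without 1 pair and 33 lost their call in at least 1. With 3 pools a group, small differences in genes of few reads were not detectable at this depth.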

Other observations

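In the STAR counts of 24 genes the second cold was called in opposite directions in the accessions, and these were picked out after their values were seen. Besides DEG14, whose rise in N14 was not seen in every table, the 6 genes that fell in Col-0 and rose in N14 included PMAT2 [AT3G29670], a phenolic glucoside malonyltransferase. PMAT2 changed by -1.24 in Col-0 and by 2.31 in N14, a difference of 3.32 ± 0.55 on the log2 scale. AT4G38660 changed by -0.57 in Col-0 and by 0.56 in N14. Besides ACD6, EDS5, NUDT6 and AT2G41090, the 18 genes that rose in Col-0 and fell in N14 included cwINV6 [AT5G11920], a fructan exohydrolase. The low-expressed cwINV6 changed by 2.00 in Col-0 and by -2.48 in N14, a difference of -4.49 ± 0.84. Tic22-III [AT3G23710], of the protein import machinery of the chloroplast envelope, changed by 0.46 in Col-0 and by -0.45 in N14, and the pectin acetylesterase gene AT3G62060 by 0.84 and -0.61.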
